A study of Homo sapiens with 6 samples.

Results

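Matrix metalloproteinases (MMPs), the related ADAMTS proteases and their tissue inhibitors (TIMPs) were examined in IMR90, a line of human lung fibroblasts, after exposure to oncostatin M, an inflammatory cytokine related to interleukin-6. Members were all genes named MMP with a number, ADAMTS with a number or TIMP1 to TIMP4 for which a probe set carried that symbol alone, and each gene was read from its probe set of highest mean over the 6 arrays. This gave 43 genes of the 18417 tested, made up of 22 MMP, 17 ADAMTS and 4 TIMP genes. Cells given recombinant human oncostatin M at 10 ng/mL (3 arrays) were compared with untreated cells (3 arrays, control), each array holding total RNA of one sample. No source used here gives the duration of the exposure. Nothing in the labels says that replicates came from separate cultures, so p-values measure only how these samples spread, possibly for technical reasons, and the number of arrays limits the precision.

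MMPs and ADAMTS proteases are zinc-dependent enzymes made as inactive precursors. They cut collagens, proteoglycans and other proteins of the extracellular matrix, and some release growth factors from it. TIMPs bind the active site of MMPs, and in fibroblasts the balance of proteases and TIMPs governs how matrix is turned over. All values below are log2 expression levels, so 1 unit is a doubling, and changes are oncostatin M minus control with their standard error (SE). A change was called when limma's p, adjusted by the Benjamini-Hochberg method over all 18417 genes, was under 0.05. Levels of different genes were not set against each other, because each probe set responds with its own strength. In bulk RNA, fewer cells that make a transcript and less of it per cell cannot be told apart.

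Of the 43 genes, 2 were higher after oncostatin M (ADAMTS1 and ADAMTS3) and 4 were lower (ADAMTS12, MMP16, TIMP3 and MMP14). That is 4.65% higher and 9.3% lower, where among all genes 1.72% were higher and 1.7% lower. The median change was -0.010 over the members and 0.00057 over all genes, and the members' median takes in 23 genes too dim for their changes to be sized. ADAMTS genes held both rises and 1 fall, MMP genes held 2 falls, and the remaining fall was that of a TIMP. In 7 members every oncostatin M value lay above every control value (16.3%, against 7.43% of all genes), and in 7 every oncostatin M value lay below (16.3%, against 10.6% of all genes). Of those above control, MMP13, ADAMTS9, ADAMTS16 and ADAMTS20 are among the 23 dim genes, and none of those below is.

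**Figure D1:**
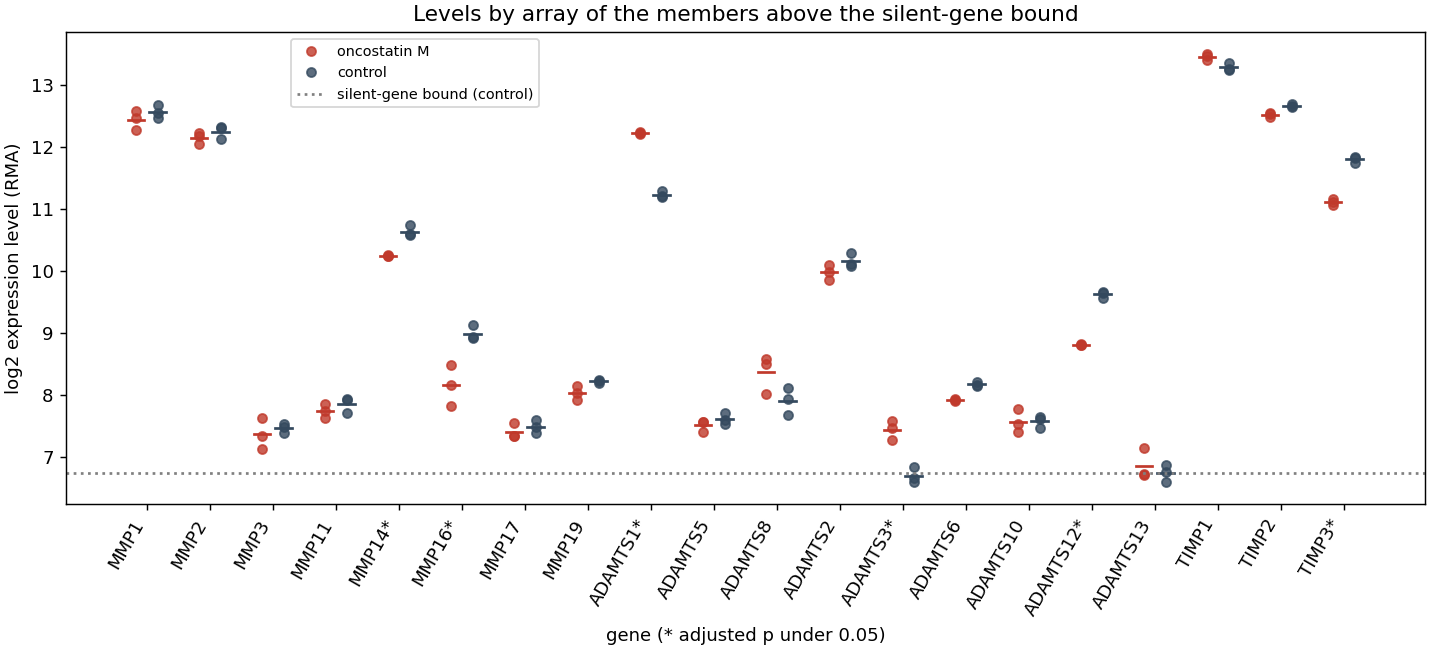
Log2 expression level (y axis) on each array of the 20 members with a mean above the silent-gene bound in at least 1 group (x axis), oncostatin M in red left of control in dark blue. Points are arrays, short lines are group means of 3 arrays, the dotted line is the bound in control (6.74), and asterisks mark the 6 called genes, each with all oncostatin M points on one side of all control points.

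The arrays carry no detection calls. Levels were therefore judged by 408 genes of olfactory receptors and keratin-associated proteins, taken as silent in fibroblasts, of which 95% had a mean at or under 6.77 after oncostatin M and 6.74 in control. By this bound 20 members stood above the silent genes in at least 1 group, and 23 (14 MMP, 8 ADAMTS genes and TIMP4) lay at or under it in both. The 10 fibroblast markers were all above the bound, with means from 10.6 to 13.2 after oncostatin M and 9.95 to 13.2 in control, and none of 5 epithelial markers was. Of endothelial markers TEK alone was above it (1 of 5), and of leukocyte markers 2 of 4 (LST1 and NKG7) while PTPRC and CD3E were not. Of the fibroblast markers 2 were higher after oncostatin M (LUM by 0.75, PDGFRA by 0.39) and 1 was lower (PDGFRB, change -0.37), with adjusted p of 0.0222, 0.0337 and 0.0253 (limma). No epithelial, endothelial or leukocyte marker passed the threshold. Of 5 smooth muscle markers, which fibroblasts also express, 4 were above the bound in at least 1 group, and CNN1 was lower after oncostatin M. Their means ran from 6.0 to 12.8 after oncostatin M and 6.1 to 13.0 in control. The calls of LUM, PDGFRA, PDGFRB and CNN1 were each lost in 3 to 5 of 6 fits without 1 array. The part of these markers in the results below was not tested. Array oncostatin M 1 differed most from its group (mean absolute deviation 0.133, against 0.0635 to 0.0881 on the other 5 arrays). Without it the changes were 1.01 for ADAMTS1, -0.82 for ADAMTS12, -0.683 for TIMP3 and -0.39 for MMP14, and these calls held. For ADAMTS3 and MMP16 the changes without it are given below.

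Among ADAMTS proteases that cleave proteoglycans, 1 of 6 measured rose and none fell. ADAMTS1, which cuts the proteoglycans aggrecan and versican, had levels of 12.21, 12.24 and 12.25 on the oncostatin M arrays, against 11.20, 11.21 and 11.29 on the control arrays. The groups stood far apart, while replicates within a group lay close together. Its change was 1.00 (SE 0.067, 1.99-fold, adjusted p = 0.000297, limma), the smallest adjusted p of the family. Without any 1 array it was between 0.979 and 1.02 and the call held.

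ADAMTS5, an aggrecan-cutting enzyme, had levels of 7.57, 7.57 and 7.40 after oncostatin M and 7.54, 7.60 and 7.72 in control. These overlapped, and the change of -0.11 (95% interval -0.30 to 0.09) did not pass (adjusted p = 0.804, limma). ADAMTS1 and ADAMTS5 are adjacent among protein-coding genes on chromosome 21 in the RefSeq gene table (GRCh38.p14). ADAMTS8 gave 8.58, 8.50 and 8.01 after oncostatin M and 7.93, 8.12 and 7.67 in control. Its groups overlapped and replicates spread widely, so that a change of 0.46 (SE 0.166) did not pass (adjusted p = 0.284, limma).

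Further enzymes of this class lay in the range of silent genes. ADAMTS4, known as an aggrecanase of cartilage, measured 6.35, 6.08 and 6.17 after oncostatin M and 6.16, 6.11 and 6.05 in control. ADAMTS9 measured 6.78, 6.71 and 6.43 after oncostatin M and 6.42, 6.41 and 6.39 in control. The ADAMTS9 groups did not overlap, yet the gap between the lowest oncostatin M and the highest control value was small and the gene did not pass (adjusted p = 0.399, limma). No size is given for either, nor for ADAMTS20, the last of the class (means of 4.32 ± 0.02 after oncostatin M and 4.25 ± 0.03 in control, SD, n = 3 each).

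Procollagen N-proteinases, which trim the amino-terminal propeptide of fibrillar collagens, gave 1 rise among 3 genes. ADAMTS3, which also takes part in activating the lymphatic growth factor VEGF-C, had levels of 7.27, 7.46 and 7.57 after oncostatin M, against 6.65, 6.59 and 6.84 in control. The groups did not overlap, and the lowest treated array was oncostatin M 1. The change was 0.74 (SE 0.103, 1.67-fold, adjusted p = 0.00646, limma), and it was 0.823 without oncostatin M 1. Since the control mean of 6.69 is within the range of silent genes, the size is uncertain. The call was lost without control 1 (adjusted p = 0.0577, limma).

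ADAMTS2, the main enzyme for type I procollagen, measured 9.98 ± 0.12 after oncostatin M and 10.17 ± 0.12 in control (SD, n = 3 each). Its arrays overlapped and the change of -0.18 (SE 0.092) did not pass (adjusted p = 0.543, limma). ADAMTS14 was at or under the bound in both groups.

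Of the other 8 ADAMTS genes measured, 1 fell and none rose. ADAMTS12, an enzyme that degrades cartilage oligomeric matrix protein, had levels of 8.83, 8.81 and 8.81 after oncostatin M, against 9.64, 9.67 and 9.57 in control. Both groups were tight, and the oncostatin M arrays were nearly equal. It fell by 0.81 (SE 0.067, 1.76-fold lower, adjusted p = 0.000635, limma), and the call held without any 1 array, with changes from -0.84 to -0.793.

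ADAMTS6, a relative of ADAMTS10 linked to fibrillin microfibrils, had levels of 7.93, 7.91 and 7.91 after oncostatin M and 8.17, 8.21 and 8.15 in control. It was the member nearest to the threshold among those short of it, with groups that did not overlap and a change of -0.26 (SE 0.065, adjusted p = 0.0882, limma). ADAMTS10 measured 7.57 ± 0.19 after oncostatin M and 7.58 ± 0.09 in control, and ADAMTS13, which cuts von Willebrand factor, 6.86 ± 0.25 and 6.74 ± 0.14 in the same order of groups (SD, n = 3 each). Their groups overlapped. ADAMTS16, ADAMTS17, ADAMTS18 and ADAMTS19 lay at or under the bound in both groups.

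**Figure D2:**
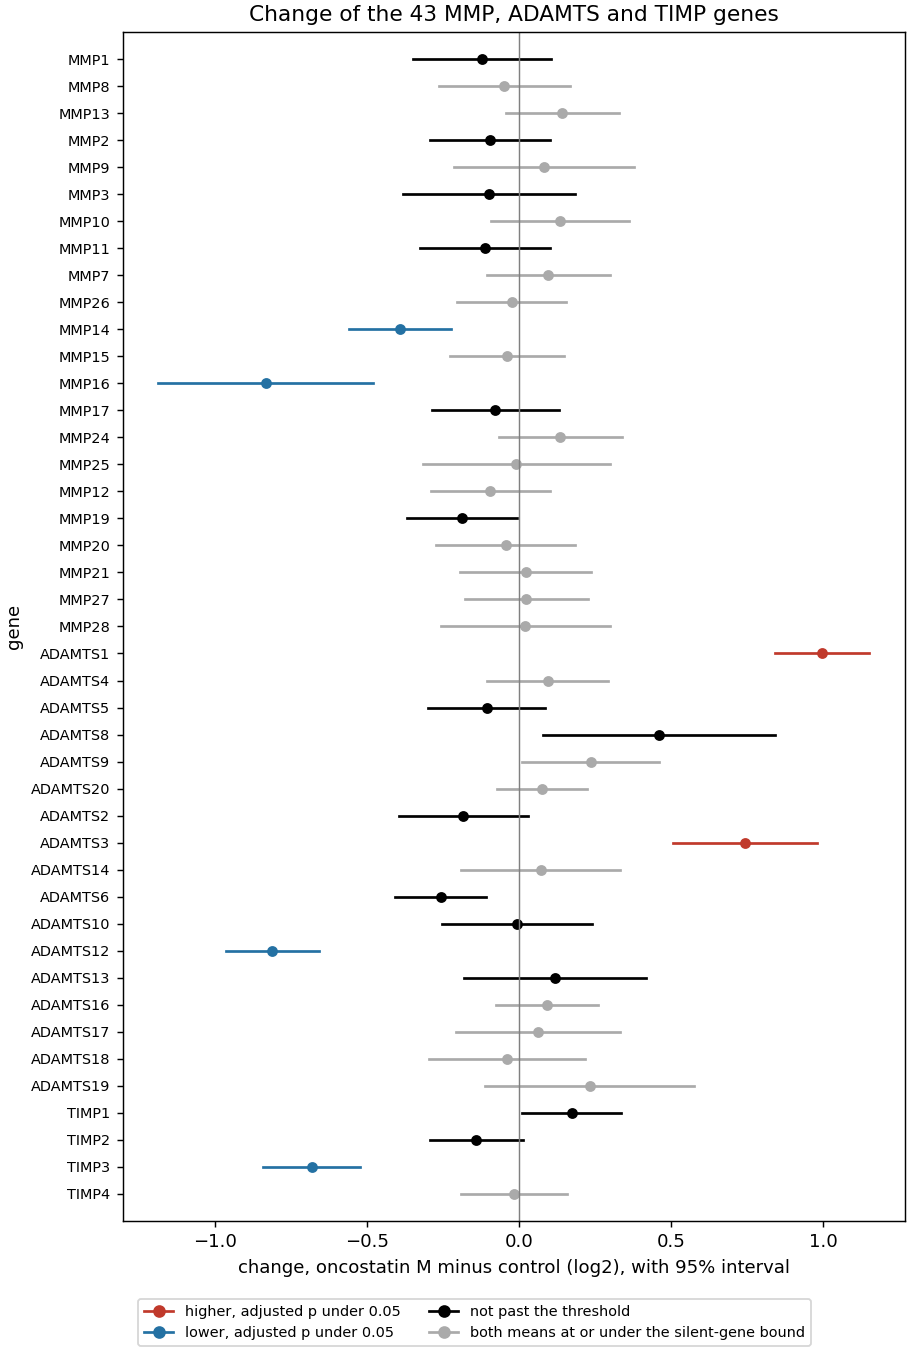
Change of each of the 43 genes (oncostatin M minus control, log2, x axis) with its 95% interval from limma, unadjusted for the number of genes, ordered by class down the page. Red and blue mark the 2 genes called higher and the 4 called lower, and the 23 grey genes lay at or under the silent-gene bound in both groups.

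Among membrane-anchored MMPs, 2 of 6 fell and none rose. MMP14 (MT1-MMP), which cuts fibrillar collagen at the cell surface and activates the MMP2 precursor, had levels of 10.24, 10.26 and 10.24 after oncostatin M, against 10.58, 10.74 and 10.60 in control. The groups did not overlap, and the treated arrays differed by a few hundredths. It fell by 0.39 (SE 0.073, 1.31-fold lower, adjusted p = 0.0246, limma), the smallest change called in the family. The size varied little without any 1 array (-0.421 to -0.343), but the call was lost in 5 of 6 such fits, with adjusted p up to 0.103 without control 2, and held without oncostatin M 1 (0.0279).

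MMP16 (MT3-MMP), which can also activate the MMP2 precursor, had levels of 7.83, 8.17 and 8.48 on the oncostatin M arrays, against 8.93, 8.91 and 9.13 on the control arrays. Every treated array was lower than every control array, and oncostatin M 1 was the lowest. It fell by 0.83 (SE 0.154, 1.78-fold lower, adjusted p = 0.0245, limma), and by 0.67 without oncostatin M 1 (adjusted p = 0.0118). The call was lost in 4 of 6 fits without 1 array, with adjusted p up to 0.115 without control 1. MMP17 overlapped between groups (7.41 ± 0.12 after oncostatin M, 7.49 ± 0.11 in control, SD, n = 3 each), and MMP15, MMP24 and MMP25 lay at or under the bound.

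MMP16 and TIMP3 were the 2 members with a pair of probe sets each, and both probe sets of both genes passed in a fit over all 19460 probe sets with 1 symbol, of which 1.61% were lower. The other probe set of MMP16 (8151684) measured 6.77, 7.48 and 7.72 after oncostatin M and 8.64, 8.83 and 9.06 in control. Its groups did not overlap either, and its change was -1.52 (SE 0.227, adjusted p = 0.00981, limma), against -0.83 on probe set 8151686. Level on the other probe set minus level on 8151686, taken array by array, was -1.06, -0.69 and -0.76 after oncostatin M and -0.29, -0.08 and -0.07 in control. The extra fall of 0.69 on the other probe set was present on all oncostatin M arrays, with an exact two-sided permutation p of 0.1, the smallest that 3 against 3 arrays allow, in a test chosen after the values were seen. The size for MMP16 thus depends on the probe set, and the reason was not tested.

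**Figure D3:**
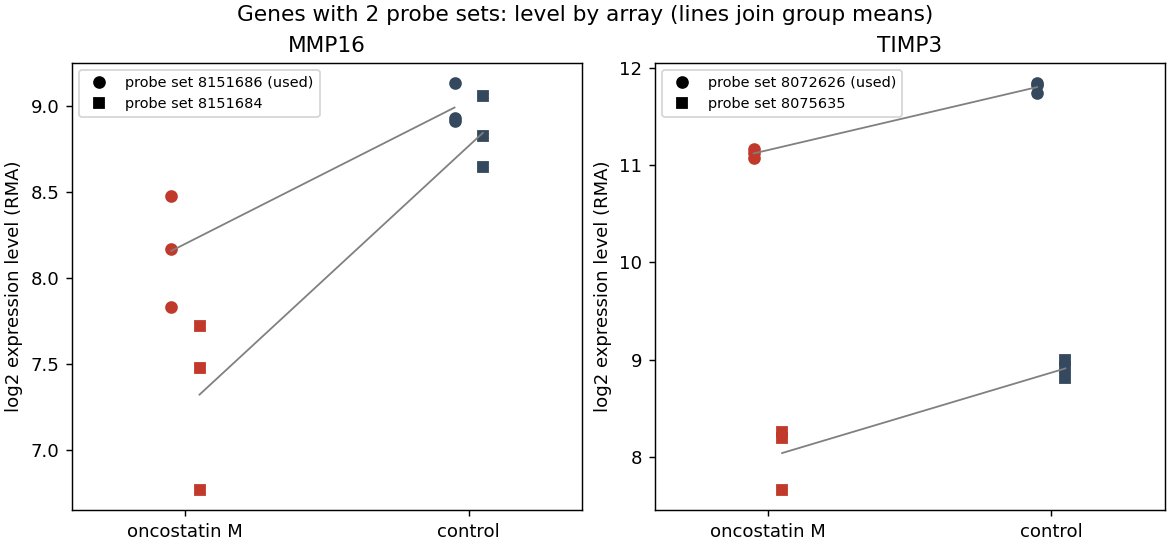
Log2 expression level (y axis) on each array for both probe sets of MMP16 (left) and TIMP3 (right), oncostatin M in red left of control in dark blue, with lines joining group means of 3 arrays. All 4 probe sets are lower after oncostatin M, and for MMP16 the lines lie further apart at oncostatin M than at control, with changes of -1.52 and -0.83.

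Secreted MMPs known from fibroblasts did not pass the threshold. MMP1, interstitial collagenase, had levels of 12.28, 12.48 and 12.58 after oncostatin M and 12.55, 12.48 and 12.68 in control. These overlapped, with a change of -0.12 (95% interval -0.35 to 0.10, adjusted p = 0.809, limma). MMP2, gelatinase A, measured 12.23, 12.19 and 12.05 after oncostatin M and 12.32, 12.31 and 12.13 in control, and MMP3, stromelysin-1, gave 7.13, 7.63 and 7.33 after oncostatin M and 7.48, 7.52 and 7.39 in control. Both overlapped, with changes of -0.097 (95% interval -0.29 to 0.10) and -0.099 (-0.38 to 0.18), so a change of 1 unit, as seen for ADAMTS1, lies outside all 3 intervals. These small values depended on single arrays. For MMP3 the change was 0.017 without oncostatin M 1, where its direction turned, and -0.233 without oncostatin M 2. For MMP2 it lay between -0.158 (without control 3) and -0.044 (without oncostatin M 3), and for MMP1 between -0.191 (without oncostatin M 3) and -0.039 (without oncostatin M 1). None of the 3 passed in any fit without 1 array.

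MMP19 measured 8.03, 8.15 and 7.93 after oncostatin M and 8.25, 8.20 and 8.23 in control, without overlap. The step between the groups was small, and its change of -0.19 (SE 0.078) did not pass (adjusted p = 0.389, limma). MMP11 measured 7.75 ± 0.11 after oncostatin M and 7.86 ± 0.12 in control (SD, n = 3 each) and overlapped.

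MMP13, the collagenase of cartilage, is listed here because oncostatin M is known to raise it with interleukin-1 in chondrocytes. In these fibroblasts it had levels of 4.44, 4.23 and 4.22 after oncostatin M and 4.16, 4.15 and 4.16 in control. All lie far under the silent-gene bound, so the small upward step has no interpretable size (adjusted p = 0.641, limma). MMP7, MMP8, MMP9, MMP10, MMP12, MMP20, MMP21, MMP26, MMP27 and MMP28 were likewise at or under the bound in both groups. Counting the dim genes named above, the 23 members had means from 3.79 to 6.67 after oncostatin M and 3.83 to 6.65 in control, and none passed (lowest adjusted p 0.399, limma, with 1 gene, ADAMTS9, at an unadjusted p under 0.05).

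In the RefSeq table, 9 of the MMP genes follow one another on chromosome 11 with no other protein-coding gene between them (MMP7, MMP20, MMP27, MMP8, MMP10, MMP1, MMP3, MMP12 and MMP13). Of these, MMP1 and MMP3 stood above the bound. None passed the threshold, and the other 7 of the run were too dim for a change to be sized. Of MMP14 and MMP16, the MMP genes that fell, neither lies in this run.

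TIMP1, the secreted inhibitor that oncostatin M is known to raise in several cell types, had levels of 13.41, 13.51 and 13.47 after oncostatin M and 13.36, 13.27 and 13.25 in control. All treated arrays were above all control arrays, but by little, and the change of 0.17 (SE 0.071, 95% interval 0.01 to 0.33) did not pass over all genes (adjusted p = 0.386, limma). TIMP2, which also helps MMP14 to activate the MMP2 precursor, measured 12.49, 12.54 and 12.56 after oncostatin M and 12.70, 12.67 and 12.65 in control. Here all treated arrays were lower, with a change of -0.14 (SE 0.066, adjusted p = 0.49, limma).

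TIMP3 was the inhibitor that changed past the threshold, 1 of 4. It is bound to the matrix and also inhibits ADAM17 and the aggrecanases, unlike most TIMPs. Its levels were 11.12, 11.07 and 11.17 after oncostatin M, against 11.82, 11.84 and 11.75 in control. The groups were tight and well apart, and TIMP3 fell by 0.68 (SE 0.069, 1.6-fold lower, adjusted p = 0.00154, limma). Without any 1 array the change lay between -0.71 and -0.658 and the call held.

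The other probe set of TIMP3 (8075635) measured 7.66, 8.26 and 8.20 after oncostatin M and 8.93, 8.81 and 9.0 in control. It fell by 0.87 (SE 0.152, adjusted p = 0.0203, limma), with oncostatin M 1 lowest. The difference in change between the pair of probe sets was -0.19 (exact two-sided permutation p = 0.5). TIMP4 gave 6.54, 6.51 and 6.53 after oncostatin M and 6.66, 6.47 and 6.50 in control, within the range of silent genes and overlapping.

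**Figure D4:**
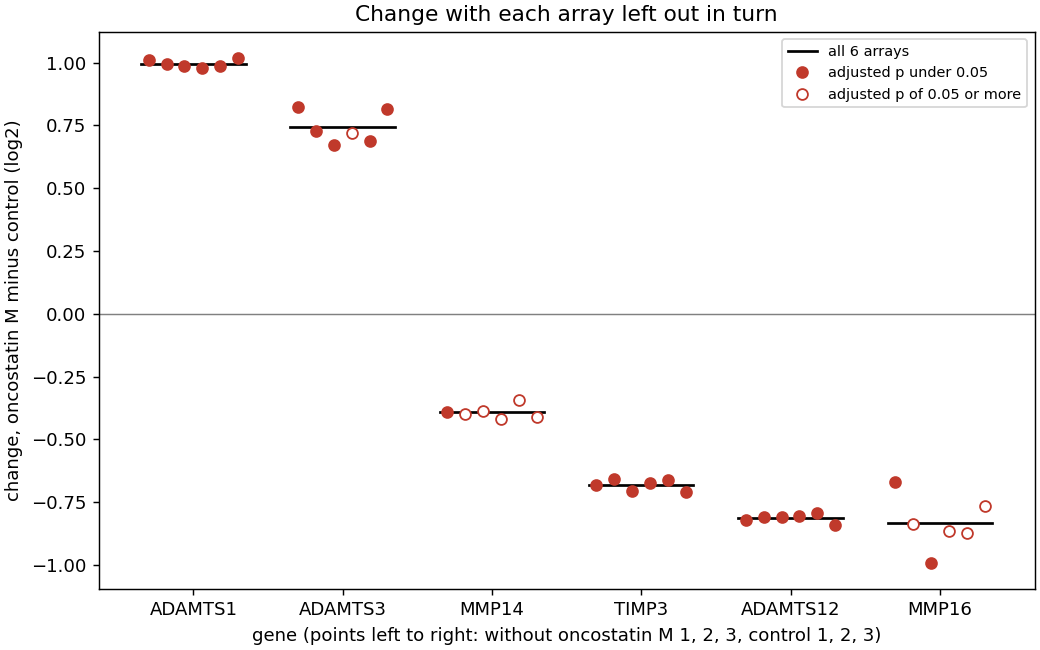
Change (oncostatin M minus control, log2, y axis) of the 6 called genes with each array left out in turn (points, left to right without oncostatin M 1, 2 and 3, then control 1, 2 and 3) and with all 6 arrays (black lines). Filled points kept an adjusted p under 0.05. ADAMTS1, TIMP3 and ADAMTS12 are filled throughout, ADAMTS3 is open once, MMP16 4 times and MMP14 5 times.

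Promoter sequence of the called genes is shown because members of both directions can be read side by side for sites of factors whose own transcripts changed. RefSeq promoter windows (GRCh38.p14, 250 bases before to 50 after the start) were at hand for 25 of 43 members and for 4 of the 6 called, namely ADAMTS12, ADAMTS3, TIMP3 and MMP14. Searches on both strands covered TGANTCA (AP-1), TTCNNNGAA (STAT), AGGAAG (the PEA3 subgroup of ETS factors) and the TATA box (TATAAA). The 250 bases before the start, on the gene's strand, are given for the 3 with the largest change, and capitals mark matches.
ADAMTS12: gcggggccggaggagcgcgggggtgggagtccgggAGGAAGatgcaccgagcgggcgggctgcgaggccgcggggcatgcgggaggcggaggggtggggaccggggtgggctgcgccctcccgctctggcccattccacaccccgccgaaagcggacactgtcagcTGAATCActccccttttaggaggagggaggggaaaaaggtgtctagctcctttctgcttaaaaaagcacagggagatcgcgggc
ADAMTS3: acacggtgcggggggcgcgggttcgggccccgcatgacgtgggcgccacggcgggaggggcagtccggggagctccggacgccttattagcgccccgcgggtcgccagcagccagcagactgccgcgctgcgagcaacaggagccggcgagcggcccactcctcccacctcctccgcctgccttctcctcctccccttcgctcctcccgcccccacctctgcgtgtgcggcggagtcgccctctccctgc
TIMP3: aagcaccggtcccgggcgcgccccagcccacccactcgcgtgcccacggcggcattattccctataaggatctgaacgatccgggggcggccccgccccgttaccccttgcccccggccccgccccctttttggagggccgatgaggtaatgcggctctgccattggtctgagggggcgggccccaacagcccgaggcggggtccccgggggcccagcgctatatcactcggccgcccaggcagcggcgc
The windows lie at chr5:33891991-33892240 (minus strand), chr4:72569222-72569471 (minus strand) and chr22:32801455-32801704 (plus strand).

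ADAMTS12, which fell, held 1 AP-1 match (TGAATCA, from -84 to -78 relative to the start) and 1 PEA3 match (from -215 to -210). None of the 4 motifs matched in the windows of ADAMTS3, TIMP3 or MMP14. Among all 35116 windows of this length, AP-1 matched in 7.71%, STAT in 7.66%, PEA3 in 33.6% and TATA in 11.5%. Of the 26 windows of members (ADAMTS10 has a pair), 4 held AP-1, 0 held STAT, 6 held PEA3 and 7 held TATA. The AP-1 matches besides that of ADAMTS12 were in MMP7, MMP10 and MMP20, all at or under the silent-gene bound. A match describes letters only, and a window without one says nothing about the factor.

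Genes related to these enzymes were read from 5 lists, chosen with earlier results of these data known, and changed in places. Of 23 activators, cell-surface regulators and other inhibitors, 1 was higher and none lower (median change -0.00038, against 0.00057 over all genes). It was PLAT, tissue plasminogen activator, whose product plasmin can activate MMP precursors (12.32 ± 0.10 after oncostatin M, 11.74 ± 0.06 in control, SD, n = 3 each). The change of PLAT was 0.58 (SE 0.081, adjusted p = 0.00626, limma). Its call held in 5 of 6 fits without 1 array and was lost without control 1 (adjusted p = 0.0502, limma). RECK, a membrane-anchored inhibitor of MMPs, measured 10.84 ± 0.09 after oncostatin M and 10.68 ± 0.11 in control and did not pass (adjusted p = 0.582, limma).

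Of 12 ADAM proteases, ADAM19 was lower (10.69 ± 0.20 after oncostatin M, 11.35 ± 0.14 in control, change -0.66, adjusted p = 0.0206, limma) and none was higher, with a median of -0.012. ADAMTS-like proteins share the ancillary domains of ADAMTS enzymes and have no protease domain. Of 6 measured, 2 were higher and none lower, with a median of 0.053. ADAMTSL4 rose by 0.60 (7.41 ± 0.05 after oncostatin M, 6.81 ± 0.11 in control, adjusted p = 0.00547, limma) and THSD4 by 0.39 (9.45 ± 0.03 after oncostatin M, 9.07 ± 0.07 in control, adjusted p = 0.0248, limma).

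Matrix proteins that these enzymes cut gave 1 rise and 1 fall among 22 genes (median 0.0033). LAMA4, a laminin chain of basement membranes, rose by 1.31 (10.46 ± 0.02 after oncostatin M, 9.15 ± 0.07 in control, adjusted p = 0.0001, limma). HSPG2, the proteoglycan perlecan, fell by 0.36 (9.82 ± 0.05 after oncostatin M, 10.17 ± 0.06 in control, adjusted p = 0.0332, limma).

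Transcription factors known for binding MMP promoters went both ways, with 4 of 16 higher and 3 lower (median -0.0019). Among AP-1 subunits JUNB rose by 1.08 (9.95 ± 0.13 after oncostatin M, 8.87 ± 0.11 in control, adjusted p = 0.000792, limma) and FOSL1 fell by 0.60 (9.65 ± 0.18 after oncostatin M, 10.25 ± 0.05 in control, adjusted p = 0.0142, limma). ETV4, a PEA3-subgroup factor, fell by 0.50 and CEBPB rose by 0.52, with adjusted p of 0.0343 and 0.0052 (limma). STAT3 (change 0.45) and ETS2 (0.36) were also higher and ETS1 (-0.48) lower, with adjusted p of 0.0114, 0.0344 and 0.0136 (limma). These counts stand beside the 1.72% higher and 1.7% lower among all genes. The calls of JUNB, CEBPB, LAMA4 and ADAMTSL4 held in all 6 fits without 1 array. No fall among the lists was still called without control 1 or without control 2. ADAM19 was lost in those 2 fits, FOSL1 in 3, ETV4 and ETS1 in 4 and HSPG2 in 5. Among the rises, STAT3 was lost in 3 and THSD4 and ETS2 in 5.

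**Figure D5:**
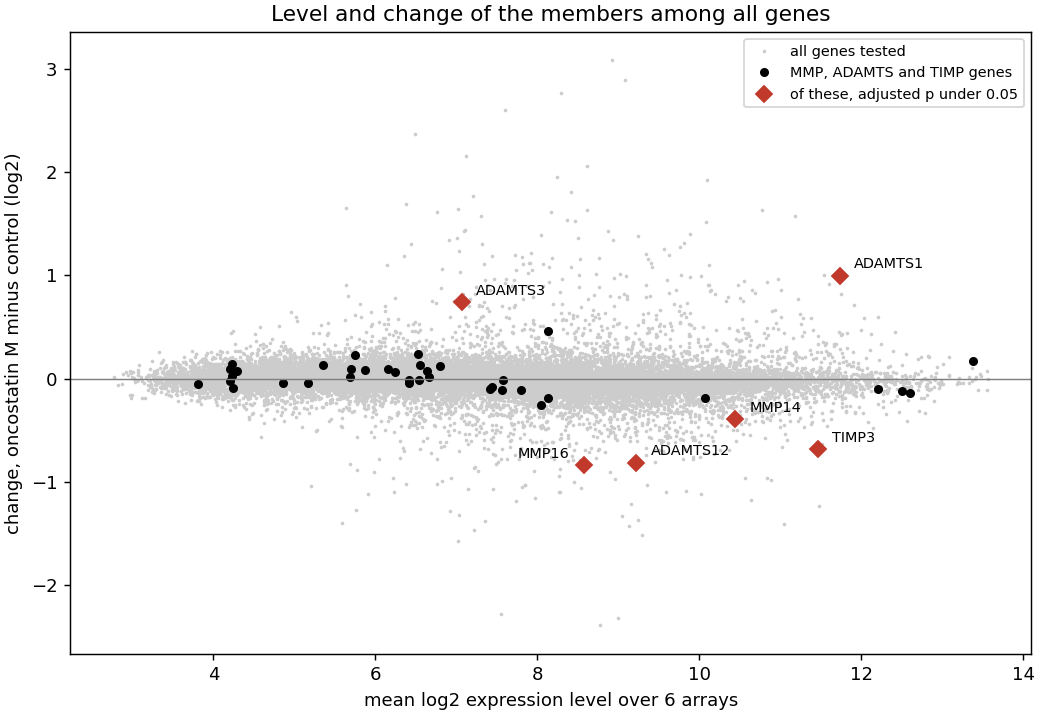
Mean log2 expression level over 6 arrays (x axis) and change, oncostatin M minus control (log2, y axis), of all 18417 genes (grey), the members (black) and the 6 called members (red diamonds, named). The called members lie between changes of -0.83 and 1.00, and most other members lie close to 0.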

How the data were processed

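The 6 arrays measured IMR90 RNA. For each array the authors deposited log2 values by probe set. The submitters' processing notes name RMA and Affymetrix Expression Console 1.1. RMA corrects background, aligns the arrays' distributions and summarises probes, and it shrinks differences at low intensity. Settings and genome build are not given in the sources used here.

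Of 33297 probe sets, the platform's gene table gave 1 symbol to 19460, several to 1754 and none to 12083. All 45 member probe sets had the same symbol in the RefSeq gene table. One probe set per gene (18417 genes, no filter) was tested with limma 3.58.1 in R 4.3.3 (lmFit, eBayes, two-sided, group as the only term), with Benjamini-Hochberg adjustment over all genes, and the model was checked on simulated arrays. Member probe sets were also fitted among all probe sets with 1 symbol. Permutation tests used scipy 1.17.1, figures matplotlib 3.10.9.

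Values by array are given for members past the threshold, the 6 next by adjusted p, and 13 family members listed for their known roles. From related lists, up to 4 called genes are named, with all called transcription factors, and RECK, chosen after its values were seen. Members and lists were chosen with earlier results of these data known. No array was identical to another. ADAMTS7, ADAMTS15 and PAPLN were not analysed here.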

Additional observations from a re-analysis of the deposited data

How the results depend on the processing

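Calls of ADAMTS1, ADAMTS12 and TIMP3 held in all 17 alternatives at a threshold of 0.05 (3 normalizations, 2 choices of probe set, 2 filters, 2 variance priors, array weights, the replicate block and 6 fits without 1 array), that of ADAMTS3 in 15 of the 16 that kept it, of MMP16 in 13 of 17 and of MMP14 in 11 of 17. ADAMTS6 passed in 3 of 17 (adjusted p = 0.038 with genes above the silent-gene bound, 0.0274 with genes above the median, 0.0166 with array weights, limma). No called member changed direction in these fits. Without 1 array, 1 to 2 members were higher (1 without control 1) and 2 to 4 lower (2 without oncostatin M 2 or any 1 control), 156 to 400 of all genes higher and 105 to 332 lower, and 4 to 9 pathway genes higher and 0 to 5 lower, against 8 and 5 with all arrays. At an adjusted p under 0.01, 2 members were higher and 2 lower, 175 of all genes higher and 112 lower, and 5 pathway genes higher and 0 lower (limma, 5 at 0.05). With genes above the median, 1 member was higher (ADAMTS3 is left out by that filter) and 9 pathway genes lower, as with genes above the silent-gene bound (9), and 10 with an intensity trend. Array weights gave 667 of all genes higher and 610 lower. The cause of these differences was not tested.

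The change of MMP16 was -1.52 on its probe set of largest variance, -1.18 as the mean of both and -0.611 with array weights. In a fit on all 33297 probe sets its used probe set had an adjusted p of 0.0807 and its other 0.0386 (limma), and those of TIMP3 had 0.00746 and 0.0661. Replicate numbers are shared between groups. Deviations of same-numbered arrays correlated at 0.0635, -0.456 and 0.511, and 1 of 3 oncostatin M arrays matched its own number best. With 3 arrays per group, these values cannot decide whether same-numbered arrays were paired. With the replicate block 2 members were higher and 3 lower (MMP14 at an adjusted p of 0.0688, limma), and 255 of all genes were higher and 223 lower. Signal limits the 23 members near silent genes, where changes cannot be sized.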

Other observations

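One probe set carries the symbols MMP23A and MMP23B together and was therefore not among the members. It measured 8.26, 7.83 and 7.89 after oncostatin M and 7.98, 8.15 and 7.75 in control, and its groups overlapped (change 0.032, adjusted p = 0.998 in a limma fit over all probe sets).

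ADAMTSL1, an ADAMTS-like protein singled out after its values were seen, did not pass the threshold. Its levels were 5.90, 6.15 and 7.07 after oncostatin M and 7.41, 7.56 and 8.12 in control. The groups did not overlap, but replicates spread widely within the treated arrays, and the change of -1.32 (SE 0.299) had an adjusted p of 0.0576 (limma). Its mean of 6.37 after oncostatin M is within the range of silent genes, so the size is uncertain. Also singled out after their values were seen, and short of the threshold, were ADAM10, a sheddase of cell-surface proteins (11.97 ± 0.05 after oncostatin M and 11.68 ± 0.07 in control, SD, n = 3 each, adjusted p = 0.0836, limma), and FURIN, a protease that cuts many MMP and ADAMTS precursors (9.16 ± 0.05 after oncostatin M and 9.44 ± 0.06 in control, SD, n = 3 each, adjusted p = 0.0981, limma).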
